A study of Mus musculus with 8 samples.

Results

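H3K27me3, the histone mark that Polycomb repressive complex 2 places on silent developmental genes, was measured over 10 genes of the Notch pathway in mouse embryonic stem cells: the ligands Jag1 and Dll4, the receptor Notch1, and the transcription factors Hes2, Hes3, Hes5, Hes6, Hey1, Hey2 and Heyl. The genes were listed by name. Each was taken from the transcript interval that best matched its span in the RefSeq annotation of mm10, at an overlap over union of at least 0.5. All 10 listed genes had such an interval, out of 20218 genes named in the table. They matched 19 of its 50398 intervals, and values per gene come from the best match.

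The tested cells were E14tg2a stem cells (129SV background) that stably carry cRAF-ErT2, a RAF kinase fused to a hormone-binding domain, after 2 h of 250 nM 4OHT (4-hydroxytamoxifen), which switches the kinase on and so activates ERK signalling. The control cells carried the same cassette and were left untreated (0 h). Both had spent the preceding 24 h in serum and LIF with 250 nM of the FGF receptor inhibitor PD173074, in place of 2 µM of the GSK3 inhibitor Chir99021. Clones A and B were each sampled at both times (n = 2 libraries per time), so no control without the cassette is part of the comparison, and each clone is 1 cell line. The labels give no sign that the libraries of a clone came from separate cultures, and a p-value here therefore reflects variation among these 4 libraries, part of which may be technical.

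Notch is a receptor that is cut when a Delta-like or Jagged ligand on a neighbouring cell binds it. Its freed intracellular part enters the nucleus, joins the DNA-binding protein RBPJ and turns on target genes, among them genes of the Hes and Hey families, which encode helix-loop-helix repressors. In embryonic stem cells the pathway is known for steering cells toward neural and other fates rather than for self-renewal.

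The RefSeq promoter windows of the genes (250 bases before to 50 after a transcript start, GRCm38.p6) show the DNA around the starts of transcripts that carried much or little of the mark. Of the 10 genes, 6 had a window there, 7 windows in all. The 5 shown were chosen to set genes with much of the mark (Dll4 and Hes5) beside Hey2, which had an intermediate level, and Jag1 and Notch1, which had little over the whole transcript. They lie at chr2:119325534-119325833 (Dll4, plus strand), chr4:154960673-154960972 (Hes5, plus), chr10:30842734-30843033 (Hey2, minus), chr2:137116471-137116770 (Jag1, minus) and chr2:26503773-26504072 (Notch1, minus). They are written 5′ to 3′, and capitals mark TGGGAA, the core of the RBPJ binding site, on either strand.
Dll4: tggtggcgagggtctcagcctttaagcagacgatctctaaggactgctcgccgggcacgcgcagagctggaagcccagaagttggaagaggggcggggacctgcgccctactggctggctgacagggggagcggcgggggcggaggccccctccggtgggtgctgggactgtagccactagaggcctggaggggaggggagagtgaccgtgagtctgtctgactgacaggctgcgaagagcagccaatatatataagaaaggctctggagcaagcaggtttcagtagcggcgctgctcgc
Hes5: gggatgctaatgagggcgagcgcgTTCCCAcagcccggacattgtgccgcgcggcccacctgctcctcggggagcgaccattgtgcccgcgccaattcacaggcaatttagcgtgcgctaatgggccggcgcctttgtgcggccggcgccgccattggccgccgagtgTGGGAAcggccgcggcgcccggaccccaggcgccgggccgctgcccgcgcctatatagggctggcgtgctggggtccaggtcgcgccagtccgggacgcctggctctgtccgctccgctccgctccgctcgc
Hey2: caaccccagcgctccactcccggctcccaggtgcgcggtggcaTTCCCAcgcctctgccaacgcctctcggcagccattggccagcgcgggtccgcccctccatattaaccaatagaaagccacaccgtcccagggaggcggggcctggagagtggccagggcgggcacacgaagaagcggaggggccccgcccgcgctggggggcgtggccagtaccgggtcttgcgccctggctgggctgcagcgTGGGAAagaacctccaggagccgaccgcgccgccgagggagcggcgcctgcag
Jag1: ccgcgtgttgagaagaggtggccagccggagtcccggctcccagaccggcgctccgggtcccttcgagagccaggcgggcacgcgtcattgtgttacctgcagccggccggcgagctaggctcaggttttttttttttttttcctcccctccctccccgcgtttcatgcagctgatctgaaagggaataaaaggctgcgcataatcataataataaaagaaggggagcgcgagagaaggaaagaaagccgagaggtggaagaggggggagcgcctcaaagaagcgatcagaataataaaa
Notch1: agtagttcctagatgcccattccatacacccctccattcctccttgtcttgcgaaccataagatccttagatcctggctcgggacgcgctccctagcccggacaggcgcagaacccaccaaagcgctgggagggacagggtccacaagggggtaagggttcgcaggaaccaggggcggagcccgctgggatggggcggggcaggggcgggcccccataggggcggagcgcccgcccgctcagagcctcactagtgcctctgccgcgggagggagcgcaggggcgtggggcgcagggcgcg

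The RBPJ core was found 2 times in the Hes5 window, at positions 25 and 169 counted from its 5′ end, and 2 times in the Hey2 window, at positions 44 and 248. It was in none of the windows of Dll4, Jag1, Notch1 and Hes6. Of all 32851 windows, 25.6% held it, 25.1% among genes with at least 4 times the median gene's density and 25.2% among other genes. The N-box CACNAG, a site to which Hes proteins are known to bind, was searched on both strands. It was found 3 times in Notch1, where 2 of the matches overlap on opposite strands. It was found 2 times in one of the windows of Hes6 and 1 time in Dll4, against 42.5% of all windows with at least 1. CpG dinucleotides, at which Polycomb complexes are known to gather when transcription is low, numbered 41 in Hes5, 29 in Hey2, 23 in Notch1, 22 in Jag1, 21 and 14 in the windows of Hes6, and 17 in Dll4, against a median of 7. Among windows of named genes the median was 14 for genes with at least 4 times the median gene's density and 7 for other genes. Within the 6 genes CpG content did not follow the order of the mark: Notch1 and Jag1 had more CpG dinucleotides than Dll4, and less of the mark over the transcript. The counts below cover transcripts, not these windows.

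Density is the count per kb of interval per 1000000 counts of the library's column total, and the median gene had 0.357. A gene is called marked at 4 times that median or more, which is 1.43. By this limit 7 of the 10 genes were marked (Hes2, Hes5, Hey1, Dll4, Heyl, Hes6 and Hes3), against 5.76% of all named genes. The median of the 10 was 6.21 times the median gene. Column totals ran from 70378127 to 92518605 counts, and the 10 intervals held 317 to 3908 counts per library. Of 11 measured pluripotency genes and 7 housekeeping genes 0 were marked, few genes to set against 5.76%. Nanog stood at 0.695 and Sox2 at 0.305 times the median gene, while Utf1 was the densest pluripotency gene at 3.07 (4.70 in clone A at 2 h, above the limit) and B2m the densest housekeeping gene at 2.48. Counts over whole transcripts cannot show where along a gene the mark sits, and a mixture of marked and unmarked cells cannot be told apart from a partial mark.

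**Figure D1:**
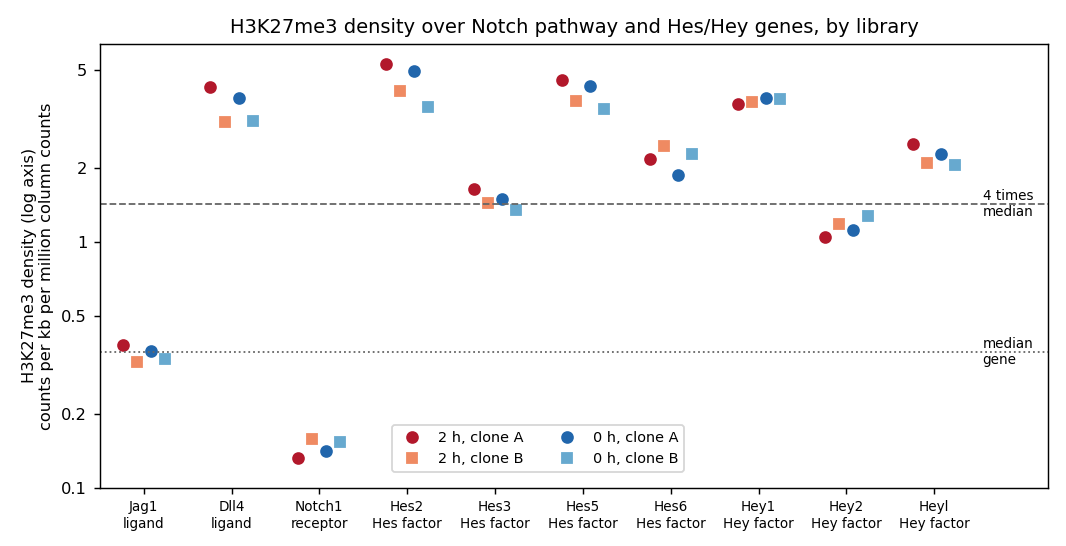
H3K27me3 density (log axis, counts per kb per 1000000 column counts) of the 10 genes in each of the 4 libraries, at 2 h and 0 h in clones A and B; lines mark the median gene (0.357) and 4 times that value (1.43). Notch1 lies below the median gene in every library, Jag1 lies at it, and Hes2, Hes5, Hey1 and Dll4 lie above 3 in every library.

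The 2 ligands differed widely in density over the whole transcript, which is 9883 bp in Dll4 and 35070 bp in Jag1. Dll4, the Delta-like ligand known for restraining vessel sprouting (chromosome 2, 119325784 to 119335666), had densities of 4.27 in clone A and 3.07 in clone B at 2 h, against 3.86 and 3.12 at 0 h. That is 10.0 times the median gene, with 1.30% of named genes denser. Clone A was higher than clone B at both times, while the times overlapped. Jag1, a Jagged ligand (chromosome 2, 137081451 to 137116520), had 0.381 and 0.324 at 2 h, against 0.361 and 0.335 at 0 h. Its mean of 0.350 ± 0.0257 (SD, n = 4 libraries) was 0.982 times the median gene, near the middle of all genes at percentile 49.2.

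The whole-transcript value of Jag1 hid an uneven spread. A shorter Jag1 interval covers 31843 bp, and subtracting its counts leaves a stretch of 3227 bp, of which 3222 bp are at the 5′ end. Over this stretch the density was 1.05 ± 0.107, against 0.279 ± 0.0270 over the shorter interval (SD, n = 4), a ratio of 3.76, and it was higher in 4 of 4 libraries. In multiples of the median gene these were 2.94 and 0.783. The 5′ stretch had 351 and 302 counts at 2 h, against 215 and 256 at 0 h, and densities of 1.18 and 1.10 at 2 h, against 0.947 and 0.976 at 0 h. The times did not overlap there, with log2 changes of 0.31 in clone A and 0.17 in clone B. This stretch was singled out after its values were seen, is no interval of the table and has no test. Of 6 such stretches 2 did not overlap between the times, and 18.4% of all intervals did not. The test of 2 h against 0 h called 0% of intervals.

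Notch1, the receptor (chromosome 2, 26457902 to 26503822), had the lowest density over the whole transcript of the 10 genes. Its densities were 0.132 in clone A and 0.158 in clone B at 2 h, against 0.141 and 0.154 at 0 h. At 0.409 times the median gene, it stood at percentile 23.7 of named genes. Notch2, the other receptor measured, stood at 0.564 times the median gene. Only 1 interval covers Notch1, so its 5′ end could not be read separately. At 45921 bp it is the longest of the 10, and a density over a long transcript averages out a mark held at 1 end. Whether length bears on its low value was not tested.

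All 4 Hes genes among the 10 were marked, while Hes1 and Hes7 had no interval named for them and were not measured. Hes2, a Hes-family repressor (chromosome 4, 152158867 to 152162469), was the densest of the 10, with 5.32 in clone A and 4.12 in clone B at 2 h, against 4.97 and 3.54 at 0 h. That is 12.6 times the median gene, with 0.490% of named genes denser. Hes5, a Notch target that keeps neural progenitors undifferentiated (chromosome 4, 154960289 to 154962372), had 4.59 and 3.76 at 2 h, against 4.30 and 3.48 at 0 h, or 11.3 times the median gene. In both genes the clone A libraries lay above the clone B libraries, and the times overlapped.

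Hes6, which is known to promote neuronal differentiation and to antagonise Hes1 (chromosome 1, 91411482 to 91413877), had 2.17 in clone A and 2.46 in clone B at 2 h, against 1.88 and 2.27 at 0 h. Here clone A was the lower clone at both times. Its mean was 6.16 times the median gene. Hes3, a Hes-family repressor known from neural progenitors (chromosome 4, 152285965 to 152291910), had 1.65 and 1.45 at 2 h, against 1.50 and 1.35 at 0 h. At 4.17 times the median gene it lay just above the limit, and it fell below it in clone B at 0 h (3.77 times that library's median gene) and, as a mean, without the clone A library at 2 h (4.00 times, unrounded just under the limit).

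The Hey genes, known for roles in vessel and heart development, spanned the limit. Hey1 (chromosome 3, 8663359 to 8667038) had 3.64 in clone A and 3.72 in clone B at 2 h, against 3.86 and 3.81 at 0 h, which is 10.5 times the median gene. It was the steadiest of the dense genes, with an SD of 0.0975 over 4 libraries, and the 1 gene of the 10 in which the times did not overlap. Heyl (chromosome 4, 123233556 to 123249870) had 2.51 and 2.10 at 2 h, against 2.29 and 2.05 at 0 h, or 6.27 times the median gene. Hey2 (chromosome 10, 30832359 to 30842783) had 1.05 and 1.18 at 2 h, against 1.12 and 1.27 at 0 h. At 3.24 times the median gene, Hey2 was just outside the limit, with 7.93% of named genes denser.

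In the order of mean density, Hes2 and Hes5, Hes5 and Hey1, Hey1 and Dll4, and Heyl and Hes6 differed by less than the larger SD of the pair over 4 libraries. The steps from Dll4 (3.58 ± 0.584) to Heyl (2.24 ± 0.207), from Hes6 (2.20 ± 0.242) to Hes3 (1.49 ± 0.127), from Hes3 to Hey2 (1.16 ± 0.0955), from Hey2 to Jag1 and from Jag1 to Notch1 (0.146 ± 0.0120) were larger than that SD and had the same sign in 4 of 4 libraries. Of the smaller steps, Hes2 was above Hes5 in 4 of 4 libraries. Hes5 was above Hey1 in 3, Hey1 above Dll4 in 3 and Heyl above Hes6 in 2.

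Shorter nested intervals allowed a split for 5 further genes, and all 5 were denser inside the shorter interval than over the rest in 4 of 4 libraries. In Hes3, Hes5, Hes6 and Hey1 the rest lay at the 5′ end, as in Jag1, and the pattern was the opposite of that in Jag1. In Hes2 the rest lay mostly at the 3′ end (1709 bp, and 467 bp at the 5′ end), so its split is not the same. The contrast was largest in Hes6, with 2.61 ± 0.259 inside a 1740 bp interval and 1.10 ± 0.222 over the 656 bp before it (SD, n = 4; ratio 2.38). That interval begins at the downstream of the 2 transcript starts, the one whose window held 21 CpG dinucleotides. The ratio was 1.31 in Hes2, 1.26 in Hes3, 1.24 in Hes5 and 1.07 in Hey1. In Hes3 the split depends on the interval used. A 2972 bp interval, which extends the 2372 bp one toward the 5′ end, had 1.88 ± 0.247, against 1.69 ± 0.233 in the 2372 bp one. It was the denser in 4 of 4 libraries, so the rest of Hes3 includes a stretch denser than the shorter interval. In clone B the 2 parts of Hey1 were close, 3.74 inside and 3.67 over the rest at 2 h, and 3.83 and 3.77 at 0 h. In Hes5, the 1449 bp from the start shown in the sequence had 4.29 ± 0.639, against 3.45 ± 0.221 over the 635 bp before it. Both stretches thus stood above the limit for a marked gene. Differences between nested intervals carry the counting error of both, and reads across a boundary count in both.

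Neighbouring genes within 100 kb were read over their own transcripts, and the DNA between genes was not measured. Around Hes5, 0 of 8 neighbours were marked: Pank4, 1.75 kb away, stood at 0.390 times the median gene and Plch2, the densest, at 2.76. Hey2 had 0 of 2 marked neighbours (the denser, Gm30618, at 1.00 times), Jag1 0 of 1 (Slx4ip, at 0.349 times) and Notch1 0 of 11, where the densest was Gm36171 at 1.95 times. Gm14207, a long noncoding RNA whose span ends inside the 5′ end of Dll4 (gap of 0), was denser than Dll4 itself, at 15.3 times the median gene, and shares reads with it. The other 6 neighbours of Dll4 were not marked.

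Each of the remaining genes had at least 1 marked neighbour within 100 kb, which was not always the nearest gene. Hes2 had 2 of 6 neighbours marked, led by Espn, an actin-bundling protein gene, at 6.35 times the median gene and 6.45 kb away. Hes3, the neighbour of Gpr153 at a distance of 0.622 kb, was less dense than that gene (6.32 times). The lncRNA 1700020N18Rik stood at 5.56 times near Hes6, and the lncRNA Gm32561 at 5.61 times near Hey1. Heyl had 2 of 8 neighbours marked, led by Oxct2a at 8.45 times, 72.0 kb away. Hes2 and Hes3 lie on the same stretch of chromosome 4. Between them are Gm30622 at 2.21 times the median gene, Acot7 at 0.433 times and the marked Gpr153.

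**Figure D2:**
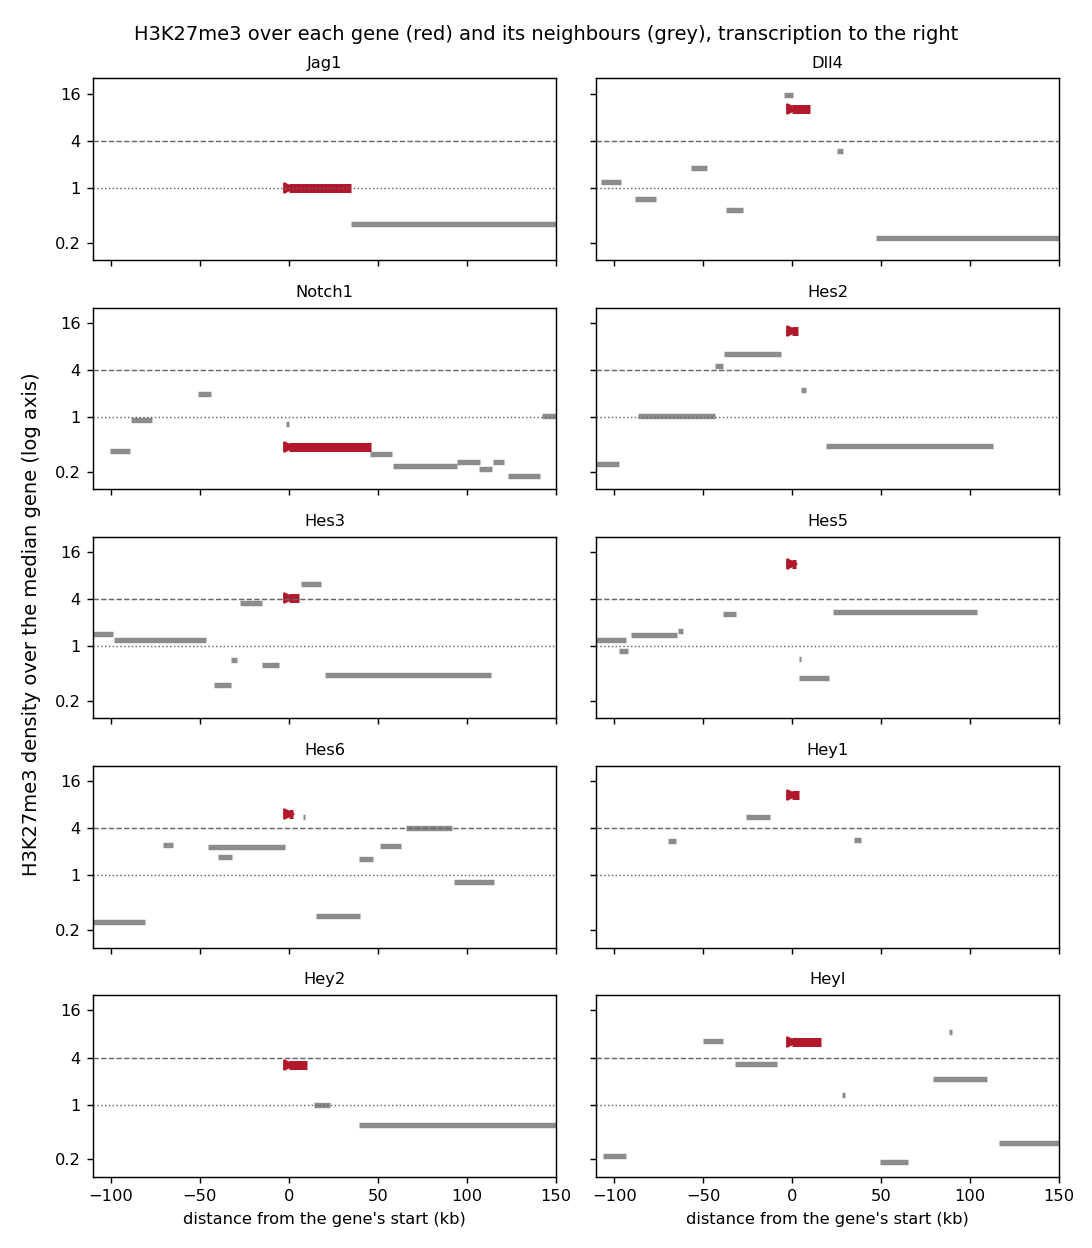
H3K27me3 density over the median gene (log axis) of each of the 10 genes (red, arrowhead at its start) and of neighbouring genes' intervals within 100 kb (grey), against distance from the gene's start in kb, with transcription to the right and longer intervals clipped; lines mark 1 and 4 times the median gene. Hes5 at 11.3 stands above neighbours of at most 2.76, while Dll4 at 10.0 is topped by Gm14207 at 15.3.

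A list of 57 other pathway genes, grouped by role, had 34 with an interval, and 7 of these were marked, beside 5.76% of all named genes; the rest of the list was not analysed here. The marked ones were the helix-loop-helix genes Helt (12.8 times the median gene) and Bhlhe41 (7.59), the feedback inhibitor Nrarp (6.52), Rbpjl, a tissue-restricted relative of Rbpj (6.22), the glycosyltransferase Lfng (6.10), the ligand Dll3 (5.85) and the corepressor Tle2 (4.41). Several core signalling genes had less of the mark than the median gene. The central DNA-binding factor Rbpj stood at 0.259 times, the gamma-secretase subunits Ncstn and Psenen at 0.220 and 0.208, the ubiquitin ligase Itch at 0.279, the demethylase Kdm5a at 0.258 and Pofut1, which adds fucose to Notch, at 0.333. The value of Psenen is rough, as it rests on 7 to 9 counts per library. Among proteases and processing genes 0 of 8 were marked, with Furin the densest at 2.72. Bhlhe40, at 2.40, was the sparsest of the Hes and Hey group, and Dner, at 1.39, the sparsest ligand outside the 10. The median over the 34 was 0.770 times the median gene. Each density averages over a whole transcript, and lengths differed widely, with 1320 bp in Psenen and 101667 bp in Rbpj. These counts describe the lists, and neither they nor a part played by length were tested.

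**Figure D3:**
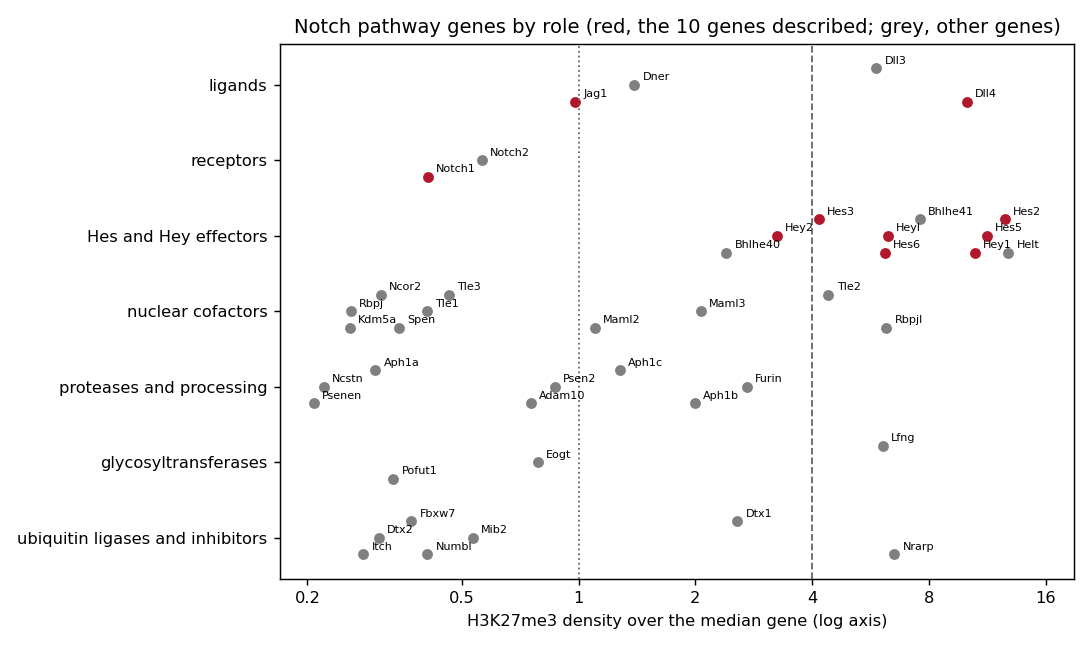
H3K27me3 density over the median gene (log axis) of measured Notch pathway genes by role, with the 10 genes described in red and the other 34 in grey; lines mark 1 and 4 times the median gene. The Hes and Hey row runs from 2.40 (Bhlhe40) to 12.8 (Helt), while the receptors lie at 0.409 and 0.564.

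The study's treatment asks whether the mark moved within 2 h of RAF-ERK activation. None of the 10 genes passed the test. Log2 changes at 2 h over 0 h ran from −0.10 in Hey2 to 0.15 in Hes2, with 7 genes above and 3 below 0. edgeR's quasi-likelihood test, fitted without a block on 50037 intervals with Benjamini-Hochberg adjustment, called 0 intervals higher (0%) and 0 lower (0%). It had 188 (0.376%) at an unadjusted p under 0.05, and DESeq2, also without a block, called 0, with 2 at that level. In these fits differences between the clones count as error, which makes them cautious. With clone as a block edgeR also called 0, with 2078 intervals (4.15%) at that level, and 7.36% of marked intervals. Of the 10 genes, 0 reached an unadjusted p under 0.05 by edgeR and 0 by DESeq2 without a block, and 1 did by edgeR with it. The adjusted p by edgeR rounded to 1.00 for each.

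Hes2 averaged 4.72 ± 0.851 at 2 h and 4.26 ± 1.01 at 0 h (SD, n = 2 each), and edgeR put the change at 0.15 on the log2 scale (SE 0.20, 95% interval −0.33 to 0.63). In the fit with clone as a block it was 0.15 (95% interval 0.02 to 0.28), and its adjusted p by edgeR again rounded to 1.00. Hes6 averaged 2.32 ± 0.201 at 2 h and 2.08 ± 0.279 at 0 h. Its change was 0.15 (SE 0.14) on the log2 scale, and each clone was above its own 0 h library, by 0.21 (A) and 0.11 (B). Hey1 averaged 3.68 ± 0.0497 at 2 h and 3.84 ± 0.0403 at 0 h. Its libraries at 2 h were both below those at 0 h, with a log2 change of −0.06 (SE 0.11; −0.08 in A and −0.04 in B). Non-overlap in 1 of 10 genes stands beside 18.4% of all intervals.

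Hes3 and Hes5 changed by 0.12 (SE 0.13) and 0.10 (SE 0.16) on the log2 scale, and Heyl by 0.08 (SE 0.13), each with the same sign in both clones. Hey2 gave −0.10 (SE 0.13; −0.09 in A and −0.11 in B). Dll4 gave 0.08 (SE 0.19), Jag1 0.02 (SE 0.13) and Notch1 −0.03 (SE 0.13), and in these 3 genes the clones had opposite signs. The 95% interval of the change lay within 1.5-fold either way for 9 of the 10 genes, and for 10 of 10 with clone as a block. Hes2 was the exception without the block. These intervals are not adjusted for the number of genes.

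Of the 34 other pathway genes, 33 had enough counts to be tested, and 0 passed in either direction. Their median log2 change was 0.05, from −0.07 in Aph1b to 0.27 in Mib2, beside 0.08 for the 10 genes, 0.04 for all marked intervals and 0.01 for all intervals. Among the marked pathway genes Nrarp gave 0.16 (SE 0.13), Lfng 0.15 (SE 0.12), Tle2 0.12 (SE 0.19), Helt 0.07 (SE 0.13), Rbpjl 0.01 (SE 0.12), Dll3 −0.03 (SE 0.11) and Bhlhe41 −0.03 (SE 0.11).

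**Figure D4:**
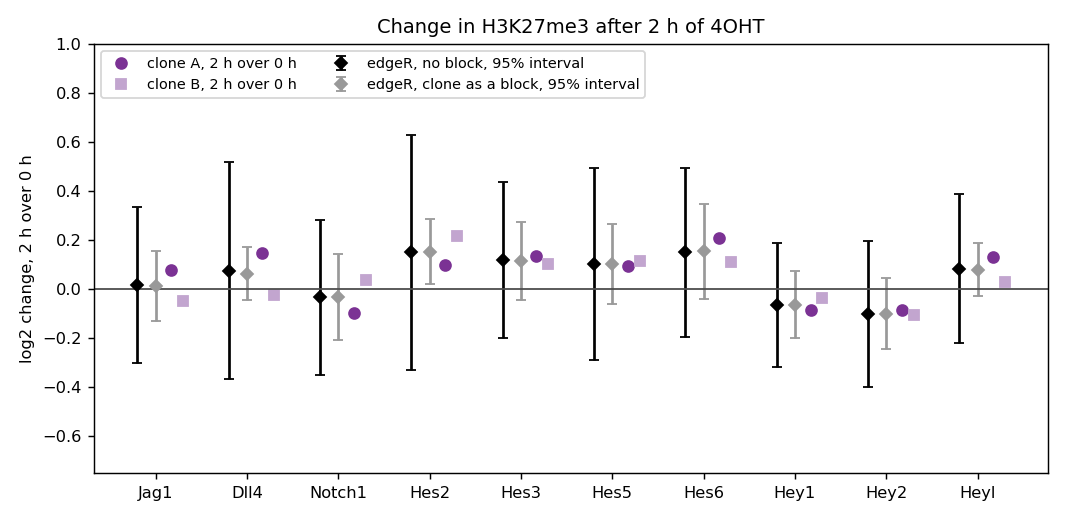
Log2 change in H3K27me3 at 2 h over 0 h for each gene: edgeR estimates with 95% intervals, without a block (black) and with clone as a block (grey), and the change within clone A (circles) and clone B (squares). The estimates lie between −0.10 and 0.15, and the intervals include 0 except that of Hes2 with the block.

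More genes were called between the clones than between the times. Dll4, Hes2, Hes5, Heyl, Jag1 and Hes3 were higher in clone A, 6 of the 10 genes, and 0 were lower, by the same test with clone in place of time. Over all intervals the share called higher was 17.3% and the share called lower 10.3%, and among marked intervals 56.1% were called higher and 2.73% lower, with a median log2 difference of 0.21. In 9 of the 10 genes the 2 libraries of one clone lay wholly above those of the other, Hey1 being the exception, and so they did in 60.8% of all intervals.

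Hes2 and Dll4 had the highest estimates, which differed from each other by less than 1 SE and changed order when clone B at 0 h was left out (0.35 in Hes2 and 0.43 in Dll4). Hes2 averaged 5.15 ± 0.249 in clone A and 3.83 ± 0.408 in clone B (SD, n = 2 each), a log2 difference of 0.45 (SE 0.07, adjusted p = 3.75e-10 by edgeR). Dll4 averaged 4.06 ± 0.296 in clone A and 3.10 ± 0.0342 in clone B (0.41, SE 0.06, adjusted p = 5.65e-12 by edgeR). Hes5 gave 0.32 (SE 0.08, adjusted p = 0.000696 by edgeR) and Heyl 0.23 (SE 0.06, adjusted p = 0.000308 by edgeR). Jag1 at 0.19 and Hes3 at 0.20 passed narrowly (adjusted p = 0.0285 and 0.0462 by edgeR), and Hes3 did not pass with time as a block (adjusted p = 0.0598 by edgeR). With that block 5 of the 10 genes were higher, against 16.9% of all intervals, and 0 were lower, against 9.91%. The other 4 genes did not pass: Hey1 0.01, Hey2 −0.17, Notch1 −0.18 and Hes6 −0.20, the last 3 lower in clone A at both times.

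These directions depend on the scaling. With factors taken from marked intervals, a choice made after seeing the data, the median of all intervals moved to −0.21, and 2524 intervals were called higher and 21815 lower, against 8633 and 5132 with factors from all intervals. With factors from marked intervals, Dll4 (0.20, adjusted p = 0.00178) and Hes2 (0.24, adjusted p = 0.00201, both by edgeR) were the 2 genes still higher in clone A. Hes6 (−0.41), Notch1 (−0.39), Hey2 (−0.37) and Hey1 (−0.19) were called lower, and Heyl (0.02), Hes3 (−0.01) and Jag1 (−0.02) lay near 0. Hes5 stayed positive at 0.11 without passing (adjusted p = 0.288 by edgeR). Each clone is 1 line, so these tests compare 2 lines and not a kind of cell.

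Of the other pathway genes tested, 5 were called higher in clone A (Tle2, Dtx1, Helt, Lfng and Rbpjl) and 8 lower (Spen, Tle3, Maml2, Bhlhe40, Notch2, Tle1, Maml3 and Dner). The lead values were 0.42 (SE 0.06) for Tle2 and −0.42 (SE 0.08) for Spen. These are 15.2% and 24.2% of the 33 genes tested, beside 17.3% and 10.3% of all intervals. With factors from marked intervals 1 was higher (3.03%) and 16 were lower (48.5%), beside 5.04% and 43.6% of all intervals. Without clone A at 0 h the counts were 7 higher and 5 lower, and without any other single library 2 were higher and 6 to 7 lower.

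**Figure D5:**
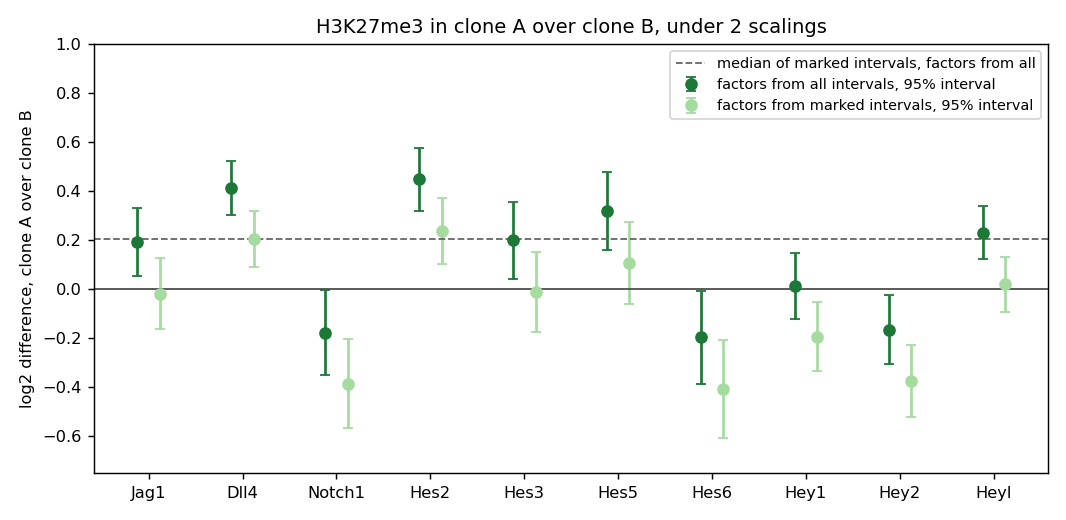
Log2 difference in H3K27me3, clone A over clone B, with 95% intervals from edgeR for each gene, under factors from all intervals (dark) and from marked intervals (light); the dashed line is the median of marked intervals under the first scaling (0.21). Hes2 and Dll4 lie above 0 under both scalings, and Hes6, Notch1 and Hey2 below.

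By the distance between log2 densities over the 4 libraries, the coding genes of at least 1000 bp nearest to Hes5 were Gsx1 (0.0813), Hapln4 (0.0882) and Gbx2 (0.0910), out of 12387 compared. Those nearest to Notch1 were Ift74, Tulp2 and Cisd2, and those nearest to Jag1 were Tmem219, Bsph1 and Pla2g2c, at distances of 0.0475 to 0.0693. The libraries share the column total that scales them, so the likeness is a description.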

How the data were processed

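H3K27me3 ChIP-seq libraries of clones A and B at 2 h and 0 h were used; the 4 input libraries were not analysed here. The values are raw counts of reads in each transcript interval, as deposited by the authors. Bowtie2, bedtools and mm10 appear in the submitters' processing notes; for their versions, filters and strand setting the entry is: not given in the sources used here. Intervals cover chromosomes 1 to 10, X, Y and M, and 16 columns of derived values that are mapped to no sample were left aside. As 84.8% of intervals share bases with another one, column totals are not sequencing depths, overlapping genes share reads, and with strand unstated antisense partners cannot be told apart.

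An interval took the name of the RefSeq gene (GRCm38.p6) whose span it matched (at least 0.5 of the union and 0.2 more than the next gene; 86.9% named). Counts were tested with edgeR 4.0.16 (TMM factors, filterByExpr, quasi-likelihood, adjusted p at most 0.05) on all intervals, without a block; SE is that of the log2 change. Also tried were DESeq2 1.42.0, different scaling factors, count filters, 1 interval per gene, blocks and leaving out each library. Clone letters pair the libraries, because a letter marks 1 clone at either time; same-clone deviations from the time means correlated at r = 0.530 across 50037 intervals. The tests were checked on simulated counts. R was version 4.3.3 and Python 3.11.15. The genes, lists and tests were chosen with earlier results of these data known. Named were all 10 genes; of the pathway list those at 4 times the median gene or more and the densest and sparsest per role; the densest neighbour of each gene; and the 3 genes nearest in density to Hes5, Jag1 and Notch1. Other genes were named after their values were seen. Counts are of reads without molecular identifiers, and with 2 libraries per group precision rests on the spread between them.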

Additional observations from a re-analysis of the deposited data

Results flagged for a closer look

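In Dll4, Jag1 and Notch1 the 2 h library lay above its 0 h library in one clone and below it in the other, on densities scaled to column totals. No test of this was made, as each clone has a single library at each time. For Dll4 the log2 change was 0.15 (clone A) and −0.02 (clone B), which is 0.17 apart. For Jag1 it was 0.08 (clone A) and −0.05 (clone B), 0.13 apart. For Notch1 it was −0.10 (clone A) and 0.04 (clone B), and clone A minus clone B was −0.13. With TMM factors the signs were the same: 0.17 and −0.05 for Dll4, 0.10 and −0.08 for Jag1, −0.08 and 0.01 for Notch1, clone A given before clone B.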

How the results depend on the processing

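At 2 h against 0 h, 0 of the 10 genes and 0 of the other pathway genes were called under each alternative run, among them DESeq2 and the paired fit with the replicate block (clone as a block; 0 higher and 0 lower, 1 gene at an unadjusted p under 0.05). The sign of uncalled changes was not stable when a library was left out, which leaves 1 time with a single clone: Jag1 ran from −0.13 to 0.12, Dll4 from −0.21 to 0.29, Notch1 from −0.17 to 0.073, Hes2 from −0.079 to 0.41, Hes3 from −0.0032 to 0.21, Hes5 from −0.071 to 0.26 and Heyl from −0.074 to 0.20. Jag1 was −0.028 with factors from marked intervals. Between clones, 6 genes were higher and 0 lower in clone A, beside 17.3% and 10.3% of all intervals. With factors from marked intervals, with or without time as a block, 2 were higher and 4 lower. Beside these stood 5.04% and 43.6% of all intervals, and 4.66% and 37.8% with the block. Values then turned for Jag1 (−0.018, and −0.017 with the block), Hes3 (−0.012, and −0.014 with the block) and Hey1 (−0.19 in both), and Hey1 was −0.0047 with column totals, where 4 genes were higher (Jag1 and Hes3 lost) and 1, Hey2, was lower. Over all intervals, column totals called 15.5% higher and 12.2% lower. DESeq2's size factors in edgeR gave 5 higher, without Hes3, beside 15.6% of all intervals. Leaving out each library gave 4 to 6 higher and 0 to 1 lower: Jag1 and Hes3 lost their calls without clone B at 0 h or either library at 2 h, Hes6 was called lower without clone A at 2 h, and Hey2 without clone B at 2 h. Hey1 then ran from −0.045 to 0.048. DESeq2 called 4 higher, without Jag1 and Hes3, beside 5666 of 40627 intervals. Marked genes numbered 7 of 10, 8 at a limit of 2 times and 4 at 8 times the median gene, and 6 to 7 when a library was left out, Hes3 dropping out without clone A at 2 h. The cause of these shifts was not tested.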
